A study of Mus musculus with 12 samples.

Results

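The genes described here are 60 ribosome biogenesis factors, proteins that make and assemble ribosomal RNA but are not part of the finished ribosome. They were chosen by name, as the rows of the deposited count table whose gene identifier maps to a listed symbol, and all 60 were found among 55487 genes. Libraries were made from total RNA of 2 tissues, liver and brain, of 6 mice, 3 with both copies of Mettl5 disrupted (KO, mice A, C and F) and 3 controls (WT, mice B, D and E), which gave 12 libraries in 4 groups of 3. METTL5 adds a methyl group to an adenosine in 18S rRNA, the RNA of the small ribosomal subunit. The KO allele lacks exon 2, which was flanked by loxP sites and removed with a Cre driven by the CMV promoter, so that the gene is disrupted in the whole body and not in 1 cell type. The line came from embryonic stem cells of a C57bl/6 x 129S6 hybrid and was bred back to C57bl/6, and no age, sex or drug treatment is given for single libraries. The labels name the controls WT, and a title in the study's supplement also calls the controls of its mouse RNA-seq wild type. The study's results, however, describe its mouse RNA-seq as a comparison of Mettl5-/- with heterozygous Mettl5+/- mice. The controls may thus carry the disrupted allele on 1 chromosome, and WT here only repeats the label.

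Ribosomes are built in the nucleolus, where RNA polymerase I transcribes a long precursor RNA that is folded, modified and cut into the mature rRNAs. Factors of the small subunit processome, among them the UtpA, UtpB and Mpp10 complexes and the U3 snoRNP, assemble on the precursor as it is made, and other factors such as the PeBoW complex process the part that becomes the large subunit. Liver and brain consist largely of cells that do not divide.

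The liver libraries held 16145754 to 21623180 counts and the brain libraries 14403309 to 18365114, and a member had between 22 and 9837 counts in a library. All 60 members passed the filter on low counts in every fit. Hepatocyte markers summed to at least 71180 raw CPM (counts scaled to the library total alone) in each liver library, and neuron markers to at least 2676 raw CPM in each brain library. Among markers of brain regions, also in raw CPM, the 6 olfactory bulb markers summed to 3.18 to 5.12 CPM in WT and 30.1 to 49.0 CPM in KO brain, the 6 cerebellum markers to 740 to 1348 CPM in WT and 47.9 to 435 CPM in KO brain, and the 5 choroid plexus markers to 235 to 426 CPM in WT and 88.9 to 171 CPM in KO brain, each without overlap and with no marker at 0. Mitochondrial rRNA took 10.7% to 16.9% of counts in WT liver, 7.36% to 8.66% in KO liver, 7.63% to 17.7% in WT brain and 21.4% to 31.6% in KO brain. The part of brain region make-up in the results was not tested. In fits without mitochondrial genes no member was called in liver or in brain. This was so with these genes as well, so that the part of mitochondrial RNA cannot be read from these calls. In bulk tissue, fewer cells of a type and less RNA per cell cannot be told apart. Mettl5 itself was at 8.13 to 14.9 CPM in WT and 3.64 to 4.07 CPM in KO liver (log2 fold change -1.44, SE 0.27, edgeR adjusted p 0.383), and at 5.02 to 9.09 CPM in WT and 3.33 to 3.96 CPM in KO brain (-0.84, SE 0.27, edgeR adjusted p 0.373).

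The members lie on 19 chromosomes, and the GC content of their longest transcript ran from 39.8% to 59.9%, with a median of 47.2%, against 49.0% for all genes tested in liver and 48.8% in brain. A promoter window of 250 bases before and 50 bases after the start site was taken from RefSeq (GRCm38.p6) for 50 members, all but Bop1, Dcaf13, Nol6, Npm1, Rrp12, Rrs1, Tbl3, Utp11, Utp6 and Wdr36. The E-box CACGTG, a palindrome that MYC and related factors can bind, was in the window of 13 of these 50 members (26.0%) and of 8.09% of the 27025 genes with a window. Of genes with an E-box, 12 of 13 members (92.3%) and 41.8% of all genes held it within 50 bases of the start site. The motif CGCGAGA, searched on both strands, was in the window of 5 of 50 members and of 2.92% of all genes. Tsr1 was the 1 member with both motifs, and they do not overlap there. A match describes the sequence and does not show that a factor binds there. The 30 bases around the E-box are shown for the 6 members in which it begins nearest to the start and for Rpf2, a member described below, read on the strand of the gene, with the motif in capitals.
Nle1: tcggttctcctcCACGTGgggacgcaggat
Pes1: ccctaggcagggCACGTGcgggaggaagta
Rpf2: aagtaatcggtaCACGTGcattcgctaagg
Tsr1: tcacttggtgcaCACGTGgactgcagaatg
Utp18: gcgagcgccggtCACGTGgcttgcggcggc
Utp4: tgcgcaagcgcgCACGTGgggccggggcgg
Wdr43: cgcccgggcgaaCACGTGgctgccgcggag

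These stretches lie at chr11:82908355-82908384 (minus strand, Nle1), chr11:3963965-3963994 (plus, Pes1), chr10:40246988-40247017 (minus, Rpf2), chr11:74898092-74898121 (plus, Tsr1), chr11:93885769-93885798 (minus, Utp18), chr8:106893643-106893672 (plus, Utp4) and chr17:71616220-71616249 (plus, Wdr43) of GRCm38.p6. The motif began at transcript base 3 in Pes1, 16 in Utp4, 18 in Wdr43, 24 in Nle1 and 25 in Tsr1, and 20 bases before the start in Utp18. Rpf2 has 2 annotated starts, and the same E-box begins 26 bases before 1 of them and at base 35 from the other. The motif CGCGAGA is shown for the 3 members that also had an unadjusted p under 0.05 in a genotype comparison below. In Noc2l and Nop58 it stands on the opposite strand, so that the gene strand reads TCTCGCG, and of the matches in Nop14 the one nearer the start is printed.
Noc2l: tgggcgcgccatggctgcgTCTCGCGctcc
Nop14: gacgcactcatCGCGAGAcgaagctgggcg
Nop58: aaaaaaaaaagTCTCGCGatattttaaggc

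They lie at chr4:156236035-156236064 (plus strand, Noc2l), chr5:34660133-34660162 (minus, Nop14) and chr1:59684843-59684872 (plus, Nop58). The 13 members with an E-box had a median log2 fold change of KO against WT of 0.044 in liver and 0.018 in brain, and the 37 members with a window and no E-box had 0.013 and -0.011.

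In liver, KO was set against WT to ask whether loss of Mettl5 goes with a change in the transcripts of the factors that build ribosomes. The members' summed level was 1549 to 1807 CPM (here and below, counts scaled to library totals adjusted by TMM) in WT and 1503 to 1697 CPM in KO liver, and the groups overlapped. The median log2 fold change was 0.028, beside -0.0024 over all 14075 genes tested, with 35 members higher and 25 lower, and without the WT library of mouse E it was -0.056. For 55 of 60 members the fold change was under 0.5 in size. No member passed an adjusted p of 0.1 (0%) in the edgeR quasi-likelihood test with Benjamini-Hochberg adjustment, where 0 of all genes did, and the smallest adjusted p of a member was 0.383. DESeq2 called 2 members, Mphosph10 and Npm1, both lower, where it called 1.04% of all genes lower. At an unadjusted p under 0.05, 3 members were higher in KO against 2.76% of all genes, and 5 were lower against 4.57%. The 3 KO libraries lay above the 3 WT libraries for 3 members (6.5% of all genes) and below them for 6 members (6.44%).

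**Figure D1:**
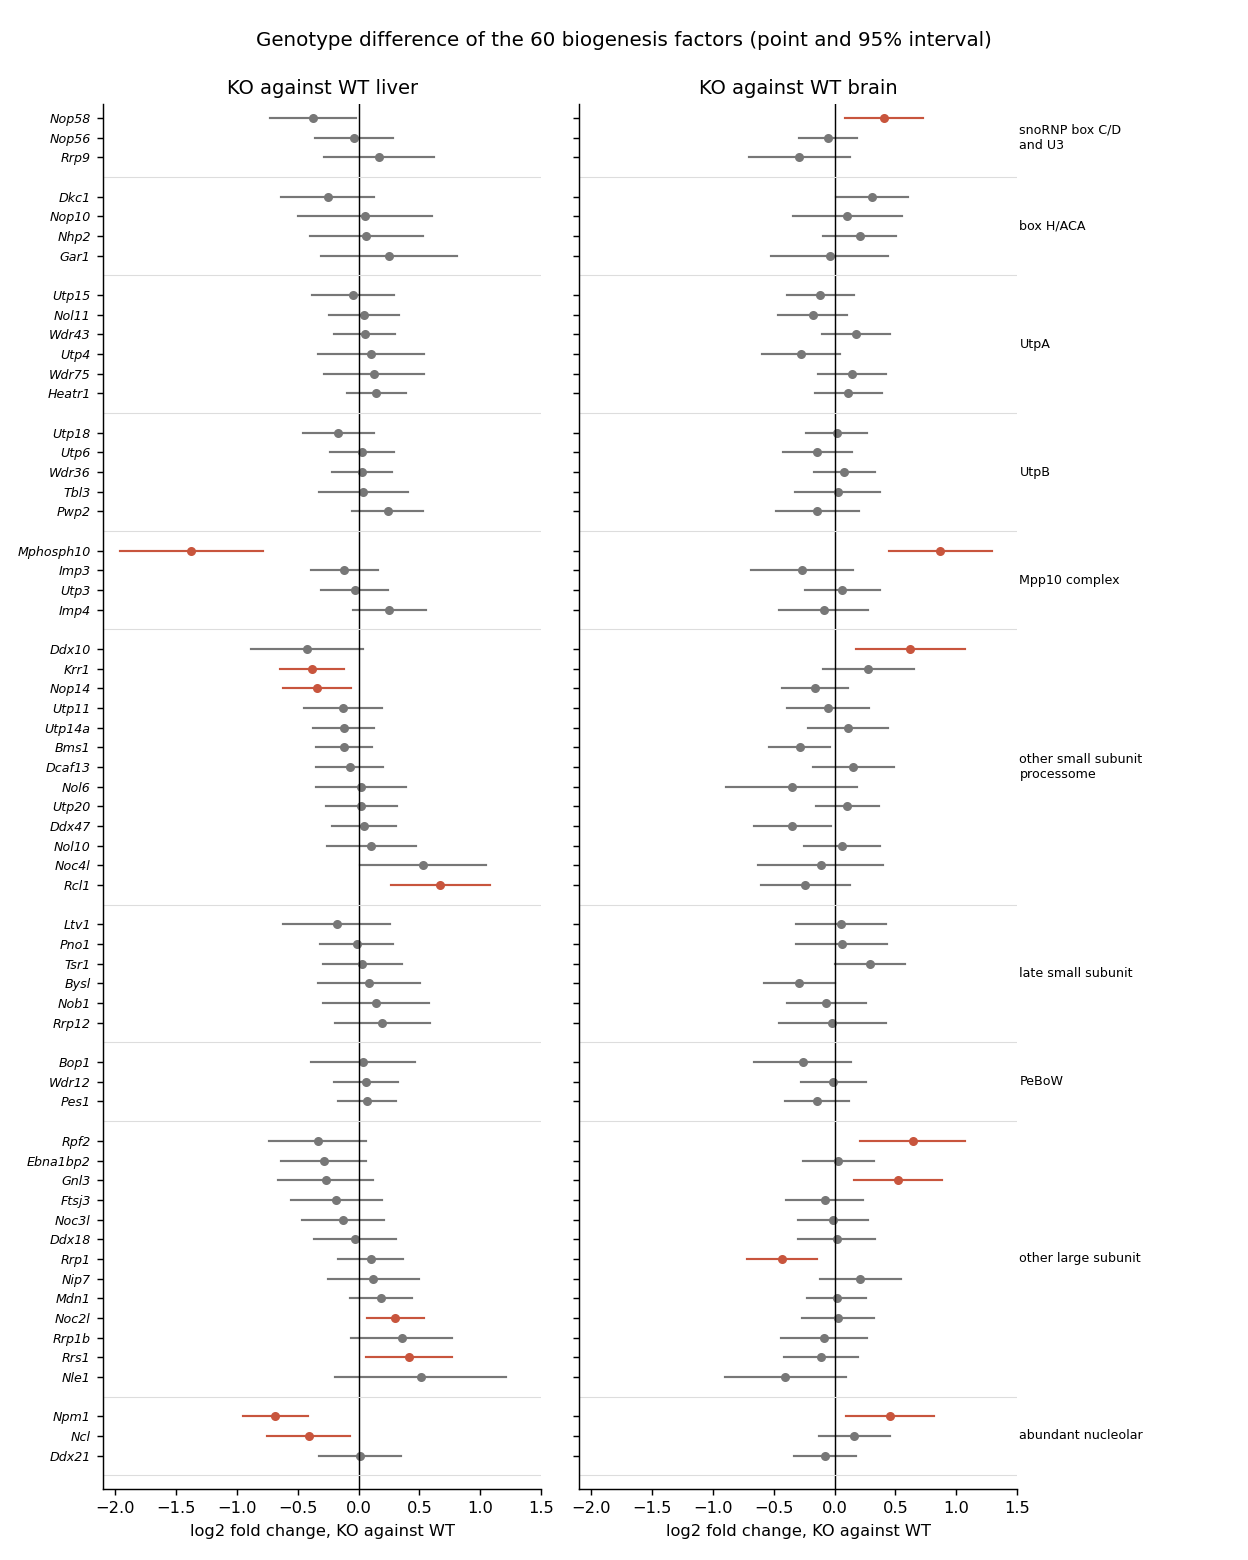
Log2 fold change of KO against WT for each of the 60 members in liver (left) and brain (right), ordered by role; points are the edgeR estimates, lines their 95% intervals by a normal approximation (narrower than the test's own), and red marks an unadjusted p under 0.05. Most intervals include 0, and Mphosph10 lies furthest from 0 on both sides, at -1.38 in liver and 0.87 in brain.

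Among small subunit factors, Mphosph10 had the largest difference. It is the scaffold of the Mpp10 complex and joins the processome at the 5′ end of the precursor (ENSMUSG00000030521.11, mm10, chromosome 7, 64376527 to 64392268, minus strand). Its level in the WT livers of mice B, D and E was 16.9, 7.68 and 11.5 CPM, and in the KO livers of mice A, C and F it was 5.78, 4.14 and 4.02 CPM. Every KO library thus lay below every WT library, with the WT library of mouse D closest to the KO group. The log2 fold change was -1.38 (SE 0.30, edgeR adjusted p 0.383), and the exact permutation p was 0.1, the smallest that 3 against 3 libraries allow. The other members of the complex stood apart from it, with log2 fold changes of -0.12 to 0.25 for Imp3, Utp3 and Imp4. The call on Mphosph10 depended on the test. DESeq2 gave an adjusted p of 0.00688 the edgeR fit without mouse D called it too, with Npm1, where 0.542% of all genes were called lower, and the adjusted p spanned 2.69e-06 to 0.985 over the alternatives.

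Rcl1, a processome protein that binds the GTPase Bms1, was the member with the largest difference in the other direction (ENSMUSG00000024785.7, plus strand of chromosome 19 from 29101375 to 29143929). Its level was 96.7, 109 and 82.8 CPM in the WT livers of mice B, D and E and 202, 116 and 142 CPM in the KO livers of mice A, C and F. The groups did not overlap, and the KO liver of mouse A was far above the others. The log2 fold change was 0.67 (SE 0.21, edgeR adjusted p 0.485). Bms1 itself was at -0.12 on the log2 scale.

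Of the other processome factors, Krr1, which carries an RNA-binding KH domain, was at 20.8 to 23.9 CPM in WT and 15.6 to 18.7 CPM in KO liver (log2 fold change -0.38, SE 0.13). Nop14, a nucleolar factor of small subunit assembly, was at 30.4 to 40.7 CPM in WT and 26.0 to 29.6 CPM in KO (-0.34, SE 0.14). In both the groups did not overlap, and neither passed the adjusted threshold (edgeR adjusted p 0.537 and 0.659). Noc4l, a partner of Nop14, was at 4.03 to 6.38 CPM in WT and 5.42 to 8.25 CPM in KO, with overlap (0.53, SE 0.27). The helicase Ddx10 was at 16.5 to 28.8 and 13.8 to 21.8 CPM, also with overlap (-0.43, SE 0.24). The UtpA and UtpB complexes and the late small subunit factors, which include the nuclease Nob1 and its partner Pno1, held no member with an unadjusted p under 0.05, and their log2 fold changes lay between -0.18 and 0.24.

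Among the abundant nucleolar proteins, Npm1 (nucleophosmin, a chaperone of the outer nucleolus, ENSMUSG00000057113.13, minus strand of chromosome 11 from 33152287 to 33163206) had the smallest p of all members in liver. It was at 94.4, 73.6 and 90.8 CPM in the WT livers of mice B, D and E and at 56.6, 51.6 and 52.8 CPM in the KO livers of mice A, C and F. All KO libraries lay below all WT libraries, and the KO libraries were close to each other. The log2 fold change was -0.69 (SE 0.14, edgeR adjusted p 0.383), with an adjusted p of 0.00688 in DESeq2 and of 0.00609 to 0.985 over the alternatives, and it was called without mouse D. Npm1 has many processed copies in the genome, and reads that also map to them could have been left out of its count. Ncl (nucleolin, which binds the precursor RNA) was at 219 to 311 CPM in WT and 168 to 225 CPM in KO, with overlap (-0.41, SE 0.17). The helicase Ddx21 was at 0.013 on the log2 scale.

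Among large subunit factors, Noc2l was at 39.1 to 44.2 CPM in WT and 47.6 to 54.7 CPM in KO liver (log2 fold change 0.30, SE 0.12). Rrs1, which helps place the 5S RNA with its partner Rpf2, was at 13.3 to 20.5 CPM in WT and 22.1 to 25.5 CPM in KO (0.41, SE 0.18). Neither overlapped between genotypes and neither passed the adjusted threshold (edgeR adjusted p 0.639 and 0.672). Rpf2 stood on the other side, at 5.51 to 6.81 CPM in WT and 4.54 to 5.21 CPM in KO without overlap (-0.34, SE 0.20). The 3 PeBoW members had log2 fold changes of 0.037 to 0.068. The box H/ACA proteins, which form the particles of pseudouridylation and include the synthase Dkc1, ran from -0.26 to 0.25. Of the box C/D proteins Nop58 was at -0.37 (SE 0.18), with WT at 15.1 to 22.9 and KO at 13.0 to 16.5 CPM and with overlap.

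In brain the summed level of the members was 2329 to 2375 CPM in WT and 2294 to 2602 CPM in KO, with overlap. As a share of all counts the members took 0.244% to 0.263% in WT and 0.217% to 0.231% in KO, without overlap, in libraries in which mitochondrial rRNA took a larger share of KO counts. The median log2 fold change was 0.0032, beside -0.0016 over all 17188 genes tested, with 30 members higher and 30 lower, and 56 of 60 under 0.5 in size. No member passed an adjusted p of 0.1 (edgeR, Benjamini-Hochberg), where 11 of all genes did (0.064%), and the smallest adjusted p of a member was 0.32. DESeq2 called 1 member, Mphosph10, as higher, where it called 0.902% of all genes higher. At an unadjusted p under 0.05, 6 members were higher in KO against 5.96% of all genes, and 1 was lower against 5.01%. The 3 KO libraries lay above the 3 WT libraries for 6 members (8.41% of all genes) and below them for 4 (7.94%).

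In brain the member with the smallest p was Mphosph10, in the direction opposite to liver. It was at 16.8, 12.6 and 18.5 CPM in the WT brains of mice B, D and E and at 38.3, 25.5 and 24.1 CPM in the KO brains of mice A, C and F. Every KO brain library lay above every WT brain library, and that of mouse A was highest. The log2 fold change was 0.87 (SE 0.22, edgeR adjusted p 0.32), the exact permutation p was 0.1, and the adjusted p was 0.0471 in DESeq2 and 0.00101 to 0.868 over the alternatives. The rest of the Mpp10 complex had log2 fold changes of -0.27 to 0.063.

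The other small subunit factor with an unadjusted p under 0.05 in brain was Ddx10, at 57.2, 33.7 and 48.5 CPM in the WT brains of mice B, D and E and 89.3, 54.95 and 70.3 CPM in the KO brains of mice A, C and F. Its groups overlapped, through the KO library of mouse C (log2 fold change 0.62, SE 0.23, edgeR adjusted p 0.396). Bms1 was at 50.97 to 60.4 CPM in WT and 44.4 to 47.3 CPM in KO without overlap (-0.29, SE 0.13). The helicase Ddx47 was at 27.3 to 36.0 CPM in WT and 22.5 to 28.4 CPM in KO, with overlap (-0.35, SE 0.16). Of the late factors, the GTPase-like Tsr1 was at 19.8 to 25.8 CPM in WT and 26.6 to 29.2 CPM in KO (0.29, SE 0.15), and Bysl at 18.2 to 22.3 and 15.2 to 17.6 CPM (-0.29, SE 0.15). The genotypes did not overlap for either, in opposite directions.

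Among large subunit factors in brain, Rpf2 (ENSMUSG00000038510.12, minus strand of chromosome 10 from 40223246 to 40247036) was at 8.57, 6.27 and 8.04 CPM in the WT brains of mice B, D and E and at 13.9, 9.06 and 12.7 CPM in the KO brains of mice A, C and F. The groups did not overlap (log2 fold change 0.64, SE 0.22, edgeR adjusted p 0.391). Gnl3 (nucleostemin, a GTPase of the nucleolus) was at 10.6 to 15.6 CPM in WT and 17.8 to 21.2 CPM in KO, also without overlap (0.52, SE 0.18, edgeR adjusted p 0.394). Rrp1, a nucleolar protein of large subunit processing, was the member furthest in the other direction (ENSMUSG00000061032.9, minus strand of chromosome 10 from 78400384 to 78413043). It was at 231, 294 and 226 CPM in the WT brains of mice B, D and E and at 184, 195 and 176 CPM in the KO brains of mice A, C and F. The groups were apart, with the WT library of mouse D the highest (-0.44, SE 0.15, edgeR adjusted p 0.383).

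Of the snoRNP proteins in brain, Nop58, a core protein of the box C/D particles that guide ribose methylation, was at 30.2 to 41.6 CPM in WT and 43.8 to 55.0 CPM in KO without overlap (log2 fold change 0.41, SE 0.16, edgeR adjusted p 0.416). Its partner Nop56 was at -0.052 on the log2 scale. The pseudouridine synthase Dkc1 was at 24.2 to 32.0 CPM in WT and 31.9 to 36.6 CPM in KO, with a small overlap (0.31, SE 0.15). Npm1 was at 76.2 to 102 CPM in WT and 98.5 to 154 CPM in KO, with the KO library of mouse C inside the WT range (0.46, SE 0.19, edgeR adjusted p 0.418). Ncl was at 0.16 on the log2 scale and Ddx21 at -0.080.

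The genotype effects of both tissues were then set against each other in 1 fit over all 12 libraries, by subtracting the brain effect from the liver effect. By sign, 39 of 60 members (65.0%) went in opposite directions in the tissues, against 58.5% of the 12574 genes tested in both, 22 higher in KO liver and lower in KO brain and 17 the reverse. Mphosph10 and Rpf2 lay below WT in KO liver and above WT in KO brain with no overlap between genotypes in either tissue, which is 3.33% of members and 0.962% of all genes. No member had an effect that differed between tissues at an adjusted p under 0.1, and neither did any of 18944 genes (0%, edgeR, Benjamini-Hochberg). At an unadjusted p under 0.05 the liver effect was higher than the brain effect for 4 members (5.51% of all genes) and lower for 8 (5.07%). The median difference over members was 0.044, and over all genes 0.043.

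**Figure D2:**
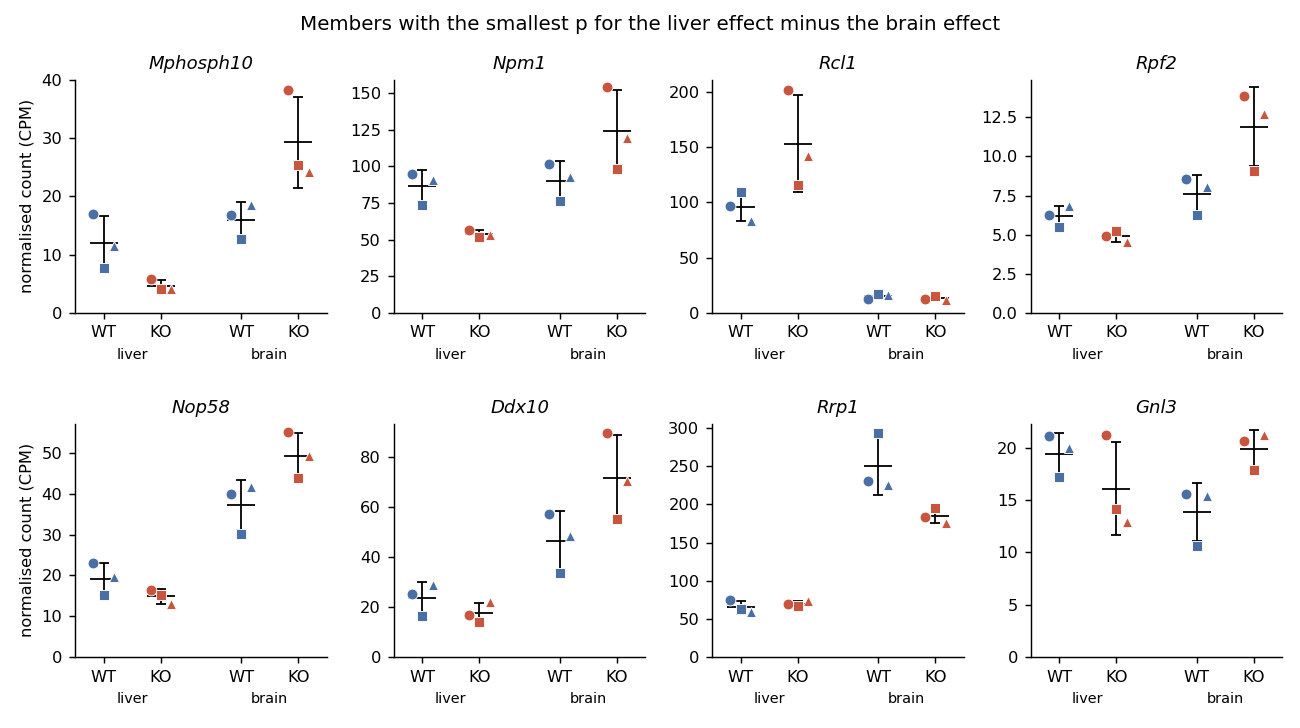
Normalised counts (CPM, axis from 0) of the 8 members with the smallest p for the liver effect minus the brain effect, in WT (blue) and KO (red) liver and brain; each point is a library, its shape stands for the mouse (circle B or A, square D or C, triangle E or F), and bars are mean and SD of 3 libraries. Mphosph10 lies below WT in KO liver and above WT in KO brain, and Rcl1 is higher in every liver than in any brain library.

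For Mphosph10 the difference was -2.22 on the log2 scale (SE 0.40, edgeR adjusted p 0.132). With a replicate block for the mouse, so that tissues of the same animal are paired, it was -2.15 and was called (edgeR adjusted p 0.0339), the 1 member among 68 genes called with the block (0.359%). Npm1 came next, at -1.11 (SE 0.25, edgeR adjusted p 0.152). Nop58 was at -0.75 (SE 0.26), Ddx10 at -1.02 (SE 0.36), Rpf2 at -0.95 (SE 0.30) and Gnl3 at -0.76 (SE 0.29), all lower in liver than in brain by this measure. Rcl1 was at 0.95 (SE 0.29) and Rrp1 at 0.57 (SE 0.21). None of these passed the adjusted threshold, with edgeR adjusted p from 0.290 for Rcl1 to 0.392 for Gnl3. DESeq2 called Mphosph10 and Npm1, 2 members among 1.45% of all genes with the liver effect lower. The edgeR fit without mouse D called Mphosph10 among 0.421% of all genes. The adjusted p of Mphosph10 spanned 5.88e-04 to 0.371 over the alternatives.

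The members with the smallest p also differed in base composition, which their choice did not use. In liver, 4 of the 5 members that were lower at an unadjusted p under 0.05 belonged to the members of low GC content (45.4% or less), and all 3 that were higher to those of high GC content (over 50.2%). In brain, 5 of the 6 that were higher were of low GC content, and the 1 that was lower, Rrp1, had 55.95%. Over the 20 members of low, middle and high GC content the median log2 fold change was -0.13, 0.017 and 0.16 in liver and 0.15, 0.024 and -0.13 in brain. Over all genes in the same ranges of GC content it was -0.10, -0.0086 and 0.060 in liver and 0.18, -0.00048 and -0.14 in brain, and in brain the medians of members and all genes were close. Spearman's correlation of GC content with the log2 fold change across the 60 members was 0.61 in liver and -0.62 in brain, and across all genes 0.25 and -0.41. These are descriptions across genes that come from the same libraries.

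**Figure D3:**
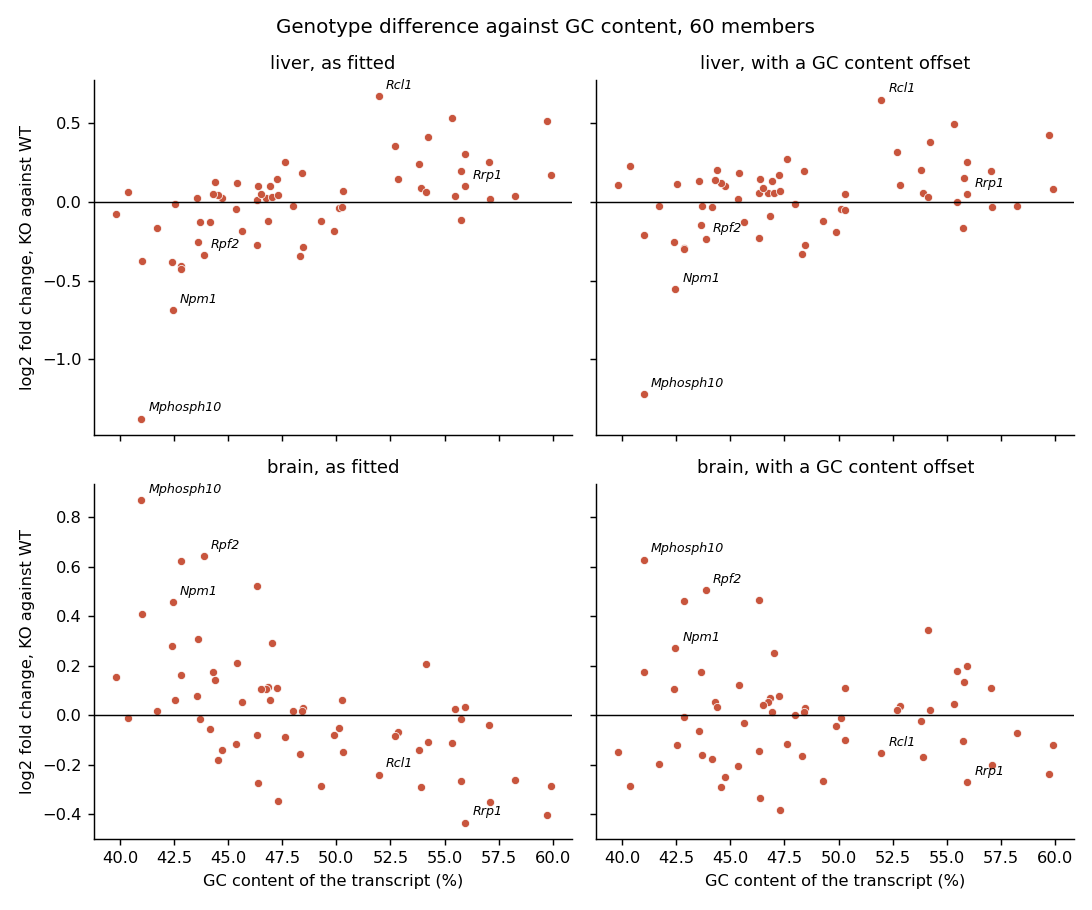
Log2 fold change of KO against WT in liver (top) and brain (bottom) against the GC content of the longest transcript, as fitted (left) and with a GC content offset in the fit (right); each point is 1 of 60 members. The slope goes up in liver and down in brain as fitted, with Spearman's correlations of 0.61 and -0.62, and 0.31 and -0.07 with the offset.

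A fit with an offset that removes the GC trend of each library over all genes brought the correlation across members to 0.31 in liver and -0.07 in brain. The spread (SD) of the members' log2 fold changes was 0.30 as fitted and 0.27 with the offset in liver, and 0.26 and 0.21 in brain. Mphosph10 stayed furthest from 0 in both tissues, at -1.22 (SE 0.29) in liver and 0.63 in brain, and Npm1 was at -0.55 in liver and 0.27 in brain. Rcl1 was at 0.65 in liver. Members with an unadjusted p under 0.05 numbered 3 in liver with the offset (6.66% of all genes) and 8 without (7.33%). In brain they numbered 7 with the offset (12.6% of all genes) and 7 without (11%), close to the share of all genes. In each library the median deviation of low-GC members minus that of high-GC members was 0.038 to 0.34 in WT liver and -0.28 to -0.057 in KO liver, without overlap, and -0.40 to 0.14 in WT brain and -0.10 to 0.31 in KO brain, with overlap.

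**Figure D4:**
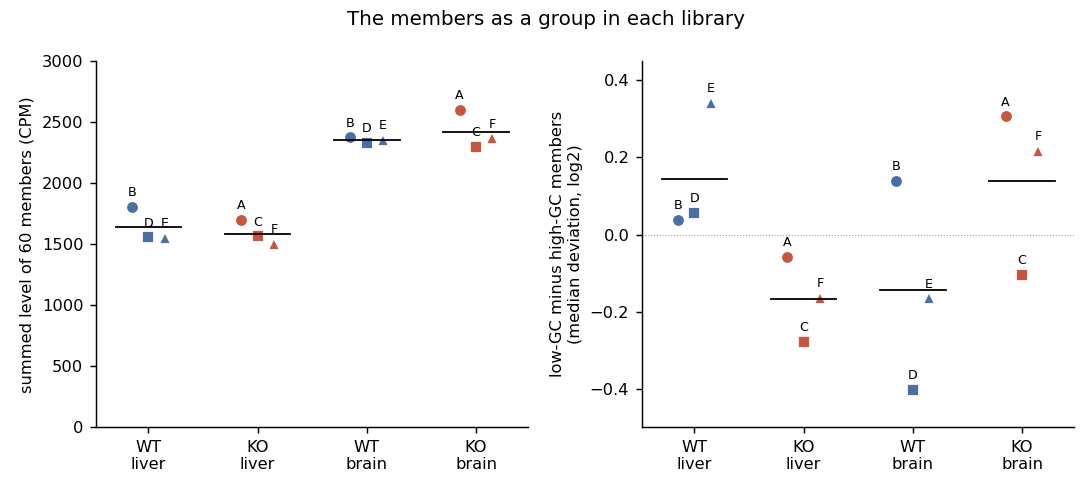
Summed level of the 60 members in CPM (left, axis from 0) and the median log2 deviation of low-GC members minus that of high-GC members from their mean over the libraries of the tissue (right), in each library, with mouse letters; lines are group means. The summed level overlaps between genotypes in both tissues, and the GC measure is above 0 in every WT liver library and below 0 in every KO liver library.

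The tissues themselves differed far more than the genotypes. Levels are given here as CPM per kilobase of counted exon. The counted length is the summed length of a gene's annotated exons. For some members, such as Imp4 and Gnl3, it covers most of the gene's span. A level is lowered where this length exceeds that of the transcripts present, so the order of genes depends on it. By counts alone Ncl was the highest member in every library. The log2 difference of a gene between tissues does not depend on this length. In WT liver the levels ran from 0.597 for Nle1 to 63.9 for Rcl1, with a median of 4.91, and in WT brain from 1.32 for Nle1 to 59.2 for Rrp1, with a median of 4.07. The order was much the same in both tissues, which share these lengths, with a Spearman's correlation of 0.83 between WT means across the 60 members. After Rcl1 the highest in WT liver were Npm1 (40.7 ± 5.58, SD, n = 3), Utp3 (39.7 ± 6.78, SD, n = 3), Ncl (32.4 ± 6.09, SD, n = 3) and Rrp1 (24.5 ± 3.40, SD, n = 3), and Npm1 and Utp3 did not differ beyond their spread. After Rrp1 the highest in WT brain were Ncl (37.0 ± 2.77, SD, n = 3), Utp3 (29.1 ± 2.21, SD, n = 3), Npm1 (26.7 ± 3.73, SD, n = 3) and Noc2l (13.99 ± 2.47, SD, n = 3), where Utp3 and Npm1 were within their spread. By this measure the lowest after Nle1 were Rrp1b, Gar1, Utp15 and Wdr12 in WT liver, at 0.981 to 1.82. In WT brain they were Imp4, Rrp1b, Dcaf13 and Tbl3, at 1.34 to 1.55. Wdr12, Imp4 and Dcaf13 have long counted lengths, so their place at this end may reflect the divisor.

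**Figure D5:**
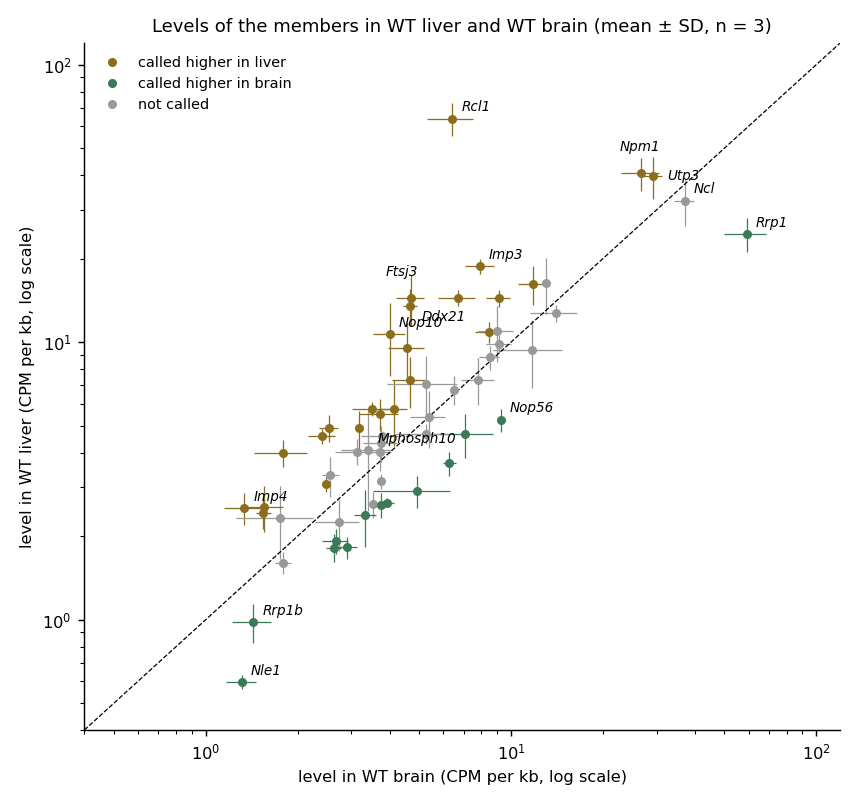
Level of each of the 60 members in WT liver against WT brain (CPM per kilobase, both axes logarithmic, points are means and bars SD of 3 libraries); the dashed line marks equal levels, brown marks members called higher in liver and green those called higher in brain. Rcl1, at 63.9 in liver and 6.42 in brain, lies furthest from the line.

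Against WT brain, 24 members were higher in WT liver at an adjusted p under 0.1 (34.8% of all genes were) and 13 were higher in brain (43.6% of all genes), by the edgeR test with Benjamini-Hochberg adjustment. The median log2 difference, liver minus brain, was 0.29 over members and -0.21 over all genes, so that the members lay 0.50 above all genes. Without mouse B the median over members was 0.10. The counts changed with a GC content offset, which moved the median of all genes by 0.50 and gave 43 members higher in liver (46.1% of all genes) and 4 higher in brain (36.1%), namely Rrp1, Nop56, Nol10 and Mdn1, with members 0.38 above all genes. In KO mice 31 members were higher in liver (35.5% of all genes) and 19 in brain (44.6%), and with the offset 38 (46.3%) and 4 (36.4%). The median was 0.30 over members and -0.22 over all genes. DESeq2 and RLE scaling moved the median of all genes by -0.11 in KO mice. The members called higher in liver then numbered 25 and 24, beside 6339 and 6319 of 18944 genes. Under both, 19 members were called higher in brain, beside 8821 and 8797 genes.

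Rcl1 had the largest difference between tissues, 65.1, 71.8 and 54.8 CPM per kilobase in the WT livers of mice B, D and E and 6.42 ± 1.11 (SD, n = 3) in WT brain. This is a log2 difference of 3.31 (SE 0.22, edgeR adjusted p 7.26e-09) in WT and of 4.26 (SE 0.23, edgeR adjusted p 7.72e-10) in KO mice. Ftsj3, a methyltransferase of the large subunit precursor, was at 14.4 ± 3.03 in WT liver and 4.70 ± 0.495 in WT brain (SD, n = 3 each), a log2 difference of 1.62 (SE 0.19). Ddx21 was at 13.5 ± 2.03 and 4.68 ± 0.240 (SD, n = 3 each), a difference of 1.53 (SE 0.16). The other named members higher in WT liver were Nop10, Imp3, Gnl3, Pno1 and Ltv1, with log2 differences of 1.06 to 1.41 and edgeR adjusted p of at most 7.05e-04. All of them were also called with the GC offset. In KO mice the largest differences after Rcl1 were those of Ddx21 (1.65), Ftsj3 (1.55), Imp3 (1.43), Nop10 (1.39), Imp4 (1.29), Noc4l (1.09) and Pno1 (1.07), with edgeR adjusted p of at most 0.003, and these were called with the offset as well.

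Rrp1 was the member most shifted to brain, at 24.5 ± 3.40 in WT liver and 59.2 ± 9.23 in WT brain (CPM per kilobase, SD, n = 3 each), a log2 difference of -1.27 (SE 0.15, edgeR adjusted p 2.94e-06), or -0.73 with the GC offset. Nop56 was at 5.26 ± 0.50 and 9.28 ± 0.0348 (SD, n = 3 each), a difference of -0.82 (SE 0.15, edgeR adjusted p 1.86e-04). Nle1, of high GC content, was at -1.14 (SE 0.31, edgeR adjusted p 0.00437), which became -0.06 and no longer called with the offset. Nol10, Rrp12, Wdr12, Nol6 and Mdn1, an ATPase that pulls assembly factors off the large subunit, were at -0.57 to -0.77, and of these Rrp12, Wdr12 and Nol6 were not called with the offset, where Nol6 stood at 0.10. In KO mice the order at this end was different, with Mphosph10 first at -1.95 (SE 0.29, edgeR adjusted p 3.33e-05), followed by Ddx10 at -1.33 (SE 0.26) and Nop58 at -1.03 (SE 0.19). With the GC offset these were -1.02, -0.63 and -0.10, and Nop58 was no longer called. Krr1, Nop56, Ncl, Rrp1 and Nol10 were at -0.70 to -0.80 in KO mice, and with the offset only Nop56 (-0.57) and Rrp1 (-0.40) of these 5 were called. Mphosph10 in WT mice was at 4.09 ± 1.63 in liver and 3.41 ± 0.634 in brain, and in KO mice at 1.61 ± 0.342 and 6.22 ± 1.65 (CPM per kilobase, SD, n = 3 each).

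By role, all 5 UtpB and all 4 Mpp10 complex members had a higher estimate in WT liver than in WT brain, and 3 of each were called. Among the 6 late small subunit factors 4 were called higher in liver and 2 in brain, and among the 13 other large subunit factors 3 were called higher in liver and 5 in brain, beside 34.8% and 43.6% of all genes. With the GC offset these counts were 4 and 0 for the late factors and 6 and 2 for the other large subunit factors, beside 46.1% and 36.1% of all genes. The 3 box C/D and U3 proteins all had lower estimates in liver, with Nop56 the 1 called. With the GC offset Rrp9 turned to 0.65 and Nop58 to 0.32, both then called higher in liver (edgeR adjusted p 0.0128 and 0.0783), and the replicate block with the offset ended the call of Nop58 (edgeR adjusted p 0.125), while Nop56 stayed at -0.54.

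Other genes of the pathway were looked at from lists that do not hold members. Of 20 genes of RNA polymerase I and its factors, none passed an adjusted p of 0.1 in liver or brain by edgeR or DESeq2. At an unadjusted p under 0.05, 0 were higher and 1 lower in liver (2.76% and 4.57% of all genes) and 1 higher and 1 lower in brain (5.96% and 5.01%). The median log2 fold change was 0.14 in liver, with 15 of 20 higher beside 6984 of 14075 genes, and -0.052 in brain, with 7 of 20 higher. The 1 lower in liver was Twistnb, a polymerase I subunit, at 17.2 CPM in WT and 13.3 CPM in KO on average. In brain, Taf1d, a subunit of the factor that selects the rDNA promoter, was at 11.3 to 22.1 CPM in WT and 26.4 to 32.7 CPM in KO (0.75, SE 0.23, edgeR adjusted p 0.355), and the subunit Polr1b was at -0.60 (SE 0.24, edgeR adjusted p 0.415). Neither overlapped between genotypes.

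Of 59 other biogenesis factors, Mettl5 among them, none passed an adjusted p of 0.1 in either tissue by edgeR, and DESeq2 called 3 lower in liver (Esf1, Mettl5 and Rsl1d1, beside 1.04% of all genes called lower) and 0 in brain. The medians were 0.0052 in liver and 0.0022 in brain. At an unadjusted p under 0.05, 1 was higher and 4 lower in liver (2.76% and 4.57% of all genes) and 1 higher and 2 lower in brain (5.96% and 5.01%). Esf1, a nucleolar factor of small subunit assembly, was at 29.4, 8.58 and 31.3 CPM in the WT livers of mice B, D and E and at 7.11, 4.03 and 5.84 CPM in the KO livers of mice A, C and F. The groups did not overlap, again with mouse D the lowest of WT (log2 fold change -2.03, SE 0.53, edgeR adjusted p 0.476). Rsl1d1, a nucleolar protein, was at 28.2 to 33.9 CPM in WT and 17.3 to 21.7 CPM in KO liver (-0.66, SE 0.14, edgeR adjusted p 0.383), and Surf6 was at 0.51 (SE 0.16) in liver.

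Among 5 growth regulators, Myc, a transcription factor known to drive biogenesis genes, was at 2.16, 3.33 and 2.73 CPM in the WT livers of mice B, D and E and at 22.95, 4.14 and 8.19 CPM in the KO livers of mice A, C and F. The groups did not overlap (log2 fold change 2.10, SE 0.64, edgeR adjusted p 0.52), and among these 5 genes Myc was the 1 that DESeq2 called. Mouse A was highest, as it was for Rcl1, and a link between these genes was not tested. In brain Myc was at 1.46 to 2.16 CPM in WT and 1.19 to 1.63 CPM in KO, with overlap. Of 12 proliferation genes, 8 were tested in each tissue and none passed an adjusted p of 0.1 by edgeR or DESeq2, while at an unadjusted p under 0.05 there were 2 lower in liver (4.57% of all genes) and 2 higher in brain (5.96%). Their median log2 fold change was -0.092 in liver, with 3 of 8 higher, and 0.052 in brain, with 5 of 8 higher. Mki67, a marker of dividing cells, was at 3.66 to 7.55 CPM in WT and 1.23 to 3.23 CPM in KO liver and at 0.552 to 0.904 CPM in WT and 1.22 to 1.52 CPM in KO brain.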

How the data were processed

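Total RNA of liver and brain was made into stranded libraries and sequenced as single-end reads of 100 bases. Per the study's methods and the submitters' processing notes, the authors checked reads with FastQC 0.11.5, trimmed them with Trimmomatic, aligned them to mm10 with STAR 2.7.3a and counted them over exons by strand with featureCounts. The table that the authors deposited gives raw counts per gene of all 12 libraries, with no normalisation. The authors compared genotypes with DESeq2. The threshold of 0.1 used here is stated by the study for methylation peaks, and for these libraries a threshold is not given in the sources used here.

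Gene symbols came from GENCODE M21 by identifier (59 members by versioned identifier and 1, Noc2l, without the version). GC content is that of the longest GENCODE M21 transcript. Counts were fitted with edgeR 4.0.16 in R 4.3.3 (TMM, filterByExpr, robust quasi-likelihood, Benjamini-Hochberg over all genes tested, call at an adjusted p under 0.1), for genotype on the 6 libraries of a tissue and for the tissues on all 12. CPM are divided by TMM-scaled totals, and CPM per kilobase also by the counted length, the summed length of a gene's annotated exons. Alternatives were DESeq2 1.42.0, RLE scaling, no filter, all 12 libraries in 1 fit, a Y-linked covariate, a GC content offset, no mitochondrial genes, mouse as a block, and each library or mouse left out. The covariate marks libraries with over 100 Y-linked counts. Those of 1 mouse per genotype, E and F, had at most 20. The fits were tested on simulated data with known fold changes. Samples were grouped by their labels. With no batch in the labels, no value within batches can be given, and p-values measure the spread between these mice only. Counting limits cover counting error only.

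Mouse letters in the labels pair the liver and brain of each animal. Deviations from group means correlated between the tissues of a mouse at -0.057 (mouse B) to 0.126 (mouse E) across 12574 genes, and at -0.256 to 0.395 across members.

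The members and lists were chosen with earlier results of these data known. Named with statistics are the 12 members of smallest p per genotype comparison, the 8 for the difference between tissues, the 8 highest and 8 lowest called members per tissue comparison, and the 5 highest and lowest levels per tissue. Same-strand overlap with other genes concerned snoRNA or miRNA genes within Nop56, Nop58, Gnl3 and Ncl, at most 2.44% of exonic bases. Opposite-strand overlap concerned 21 members, at most 37.3% (Tbl3), and the counting used strand.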

Additional observations from a re-analysis of the deposited data

Results flagged for a closer look

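The genotype effect on Mphosph10 differed between liver and brain in the test of the difference itself when tissues of the same mouse were paired, at -2.15 on the log2 scale (edgeR adjusted p 0.0339). All 3 KO livers lay below the WT livers and all 3 KO brains above the WT brains. Without the pairing the difference was -2.22 and did not pass the threshold (edgeR adjusted p 0.132), and with the pairing and a GC content offset together it was -1.82 (SE 0.33, edgeR adjusted p 0.113), where no gene was called.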

How the results depend on the processing

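In liver, where no member was called, DESeq2 called 2 members lower (Mphosph10, Npm1), the Y-linked covariate 1 (Npm1), and no filter on low counts 2 lower and 1 higher (Rcl1). Leaving out a library gave 0 to 2 called lower, 2 of them without WT mouse D, and a median of -0.056 (without WT mouse E) to 0.068. Calls over all genes were 187 with DESeq2, 443 with no filter, 82 with the covariate and 87 without WT mouse D, against 0. In brain, DESeq2 called 1 member higher (Mphosph10) and no filter 2 (also Ddx10), with 286 and 1000 calls over all genes against 11, 25 with the GC content offset and 2 to 23 with a library left out. For the liver effect minus the brain effect, DESeq2 and no filter each called 2 members lower (Mphosph10, Npm1), and leaving out a mouse 0 to 1 (1 without mouse D), with 379, 183 and 86 calls over all genes against 0.

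With the replicate block, which pairs the tissues of a mouse, 1 member (Mphosph10) and 68 genes were called for the difference between tissues, and 0 with the block and the GC content offset. Between tissues in WT, the median was 0.20 with DESeq2 and with RLE scaling, 0.67 with the GC content offset and 0.65 with block and offset, and 0.10 (without mouse B) to 0.31 with a mouse left out. Called higher in liver were 43 with the offset and 41 with block and offset, and higher in brain 4 and 3. Nol6 turned to 0.10 with the offset and 0.093 with block and offset. In KO, the median was 0.19 with DESeq2 and with RLE scaling, 0.68 with the offset and 0.66 with block and offset. With the offset, and with block and offset, 4 members were called higher in brain, where 15671 and 15367 of 18944 genes were called in either direction. The offset for these fits was chosen after seeing the data and assumes the same GC trend in both tissues. The cause of these differences was not tested. In the tissue comparisons the pairing ended the calls of Nop14, Gnl3, Wdr36 and Noc3l in KO and called Rrp9 in WT. With the GC content offset the pairing also ended those of Nop58, Gar1 and Mdn1 in WT and of Gar1 and Nle1 in KO. It changed no other call of a member in these fits. With 3 libraries a group and SE of 0.12 to 0.36 for members in liver and 0.12 to 0.27 in brain, differences several times the SE, such as that of Npm1 in liver, did not pass the adjusted threshold.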
